A study of Mus musculus with 9 samples.

Results

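Transcripts of 7 ligands of the epidermal growth factor (EGF) family, Hbegf, Areg, Ereg, Epgn, Tgfa, Btc and Nrg1, and of 3 receptors of the ERBB family, Egfr, Erbb2 and Erbb3, were followed across 4 cell populations sorted from mouse hair follicles. The 10 genes were chosen by symbol, with no measured value in the rule, and make up 10 of the 46517 gene rows of each library. These genes and the gene lists used below were chosen with earlier results of these data known. Bulk RNA was sequenced in 9 libraries of back skin at postnatal day 30, when follicles were in anagen VI, the growth stage in which the hair shaft is made. Suprabasal hair bulb cells (suprabasal HB), basal hair bulb cells (basal HB) and outer root sheath cells (ORS) gave 2 libraries each, and hair follicle stem cells (HFSC) gave 3. All 4 groups carry the same labels otherwise. The strain label is Lhx2-GFP (CD1), the extraction text names K14-H2BGFP mice, sex is given as Mixed, and no treatment or deletion is named. Sorting relied on GFP, integrins α6 and β1, CD34, Sca-1 and P-cadherin, but the gates and the number of mice per library are not given. Nothing says that replicates came from separate animals, so the p-values measure the spread between these libraries only, which may be technical.

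EGF family ligands are made as membrane-anchored precursors, and sheddases such as ADAM17 and ADAM10 cut them free. HBEGF, AREG, EREG, EPGN, TGFA and BTC bind EGFR, and NRG1 binds ERBB3 and ERBB4. ERBB2 has no known ligand and acts as the preferred partner of the other receptors, while ERBB3 has little kinase activity of its own and signals through such a partner. In mouse skin, loss of Tgfa or reduced EGFR function gives curly whiskers and a wavy coat.

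Total expected counts ran between 25098237 and 88596741 per library, and the lowest, up to 29902799, were those of HFSC. A limit of 3 counts, which covers counting error only, was worth 0.0335 to 0.133 CPM, a normalised read count scaled to library size. Bulge stem cell markers summed to 209 to 394 TPM in suprabasal HB, 740 to 953 TPM in basal HB, 3916 to 5058 TPM in ORS and 4003 to 4633 TPM in HFSC, so this list did not separate ORS from HFSC. Outer root sheath and basal keratinocyte markers, at 1166 to 1256 TPM in suprabasal HB, 2872 to 2917 TPM in basal HB, 3385 to 4037 TPM in ORS and 8126 to 9093 TPM in HFSC, were higher in HFSC than in the population named for the sheath. Inner root sheath and hair shaft markers summed to 2842 to 4009 TPM in suprabasal HB, 1912 to 2065 TPM in basal HB, 735 to 1251 TPM in ORS and 455 to 695 TPM in HFSC. In HFSC, 21 genes were listed at 0 in its 3 libraries and at 10 TPM or more in all other 6, and 19 genes showed the reverse. Such genes were not counted for the other populations. No member was among either set. Whether the HFSC libraries were handled apart is not given, and such a difference cannot be told apart from the population. In bulk RNA, fewer cells of a type and less RNA per cell cannot be told apart either.

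All 10 members passed the filter on low counts and entered edgeR's quasi-likelihood test with Benjamini-Hochberg adjustment over 20491 genes, in which an adjusted p under 0.05 counted as a change. In suprabasal HB against basal HB, Areg, Epgn and Erbb3 were higher and Hbegf, Tgfa and Egfr lower. Those 6 of 10 compare with 27.9% of all genes, 13.1% higher and 14.8% lower, and the members' median log2 change was 0.45 against 0.00 for all genes. In suprabasal HB against ORS, Erbb3 was higher and Hbegf, Nrg1 and Egfr lower. Those 4 of 10 stand beside 29.4% of all genes, 14.3% higher and 15.1% lower, with medians of 0.20 and -0.01. In suprabasal HB against HFSC, Erbb3 was higher and Hbegf, Nrg1, Egfr and Erbb2 lower. Those 5 of 10 are near the 51.5% of all genes, 25.2% higher and 26.3% lower, with medians of -0.01 and 0.02.

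In basal HB against ORS, Tgfa was higher and Epgn lower, 2 of 10 members beside 30.5% of all genes, 15.8% higher and 14.7% lower, with medians of -0.18 and -0.04. In basal HB against HFSC, Tgfa was higher and Hbegf, Epgn, Nrg1, Egfr and Erbb2 lower. Those 6 of 10 stand beside 48.9% of all genes, 22.8% higher and 26.1% lower, with medians of -0.81 and -0.0040. In ORS against HFSC, Hbegf, Nrg1, Erbb2 and Erbb3 were lower and no member was higher. Those 4 of 10 are near the 41.9% of all genes, 18.1% higher and 23.8% lower, with medians of -0.43 and -0.05. The 6 comparisons reuse the same 9 libraries and are not independent of each other.

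These counts moved when single libraries were left out. Calls over all genes fell in each of the fits named next, some of which left a population with 1 library. For suprabasal HB against basal HB, 1 member was called without basal HB replicate 1, and 2 were called without basal HB replicate 2 or without suprabasal HB replicate 1. In ORS against HFSC, 2 members were called without any 1 of the HFSC libraries, without ORS replicate 1 or without either basal HB library. In basal HB against ORS, 4 members were called without either suprabasal HB library. On log2(TPM + 1) the split of calls over all genes also moved, with 20.5% higher in place of 46.8% in suprabasal HB against basal HB, 31.3% in place of 48.6% in suprabasal HB against ORS, 72.5% in place of 46.7% in basal HB against HFSC, and 68.5% in place of 43.2% in ORS against HFSC.

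**Figure D1:**
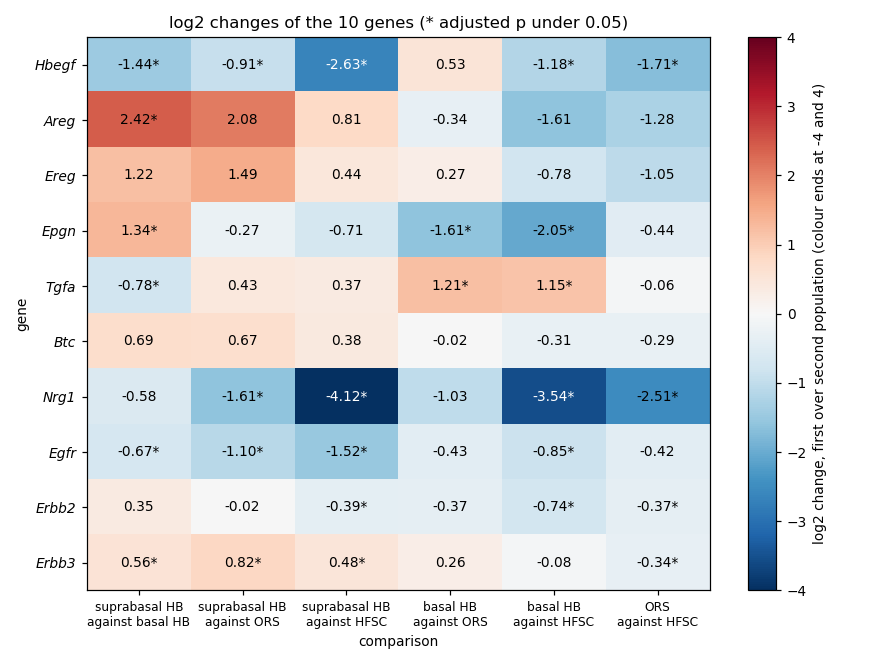
Log2 changes (first population over second, printed in each cell and coloured from -4 to 4) of the 10 members, in rows, in the 6 comparisons, in columns, with a star where the adjusted p was under 0.05. Hbegf and Nrg1 are blue and starred in every comparison with HFSC, and Erbb3 is red and starred in every comparison of suprabasal HB with another population.

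The summed ligand level, in TPM, a unit scaled for gene length, was 11.5 and 7.97 in suprabasal HB, 17.0 and 16.2 in basal HB, 12.9 and 11.4 in ORS, and 23.3, 21.1 and 23.2 in HFSC. The HFSC libraries were the highest, and suprabasal HB and ORS overlapped. The leading ligand was not the same in all populations. Tgfa was the most abundant of the 7 ligands in both suprabasal HB libraries and in basal HB replicate 2, and Hbegf was the most abundant in the other 6 libraries. Hbegf made up 25.6% and 23.1% of the ligand TPM in suprabasal HB, 50.4% and 42.8% in basal HB, 43.4% and 41.5% in ORS, and 59.0%, 60.5% and 58.9% in HFSC. Tgfa made up 26.4% and 44.3% in suprabasal HB, 38.9% and 45.2% in basal HB, 24.7% and 22.5% in ORS, and 13.2%, 9.50% and 8.92% in HFSC. Nrg1 contributed 11.6%, 8.88% and 10.7% of the ligand TPM in HFSC. The ratio of Hbegf to Tgfa in TPM was 0.970 and 0.521 in suprabasal HB, 1.30 and 0.947 in basal HB, 1.76 and 1.85 in ORS, and 4.46, 6.37 and 6.60 in HFSC.

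**Figure D2:**
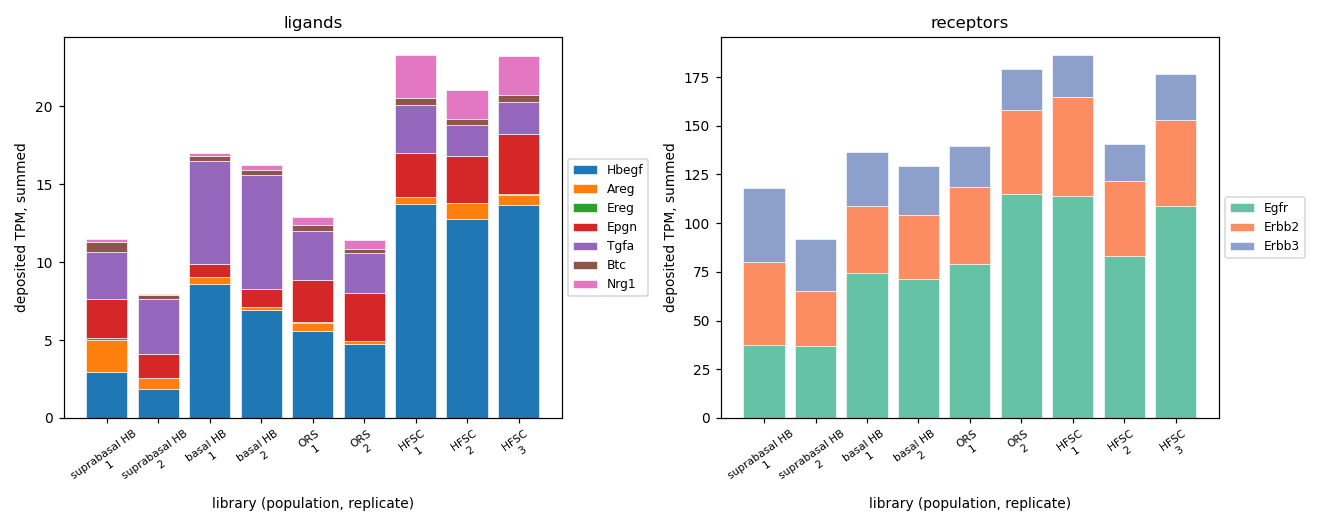
Stacked TPM of the 7 ligands and of the 3 receptors in each of the 9 libraries. Hbegf takes 23.1% to 25.6% of the ligand TPM in suprabasal HB and 58.9% to 60.5% in HFSC, and Egfr shrinks relative to Erbb3 in suprabasal HB.

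Hbegf (ENSMUSG00000024486) encodes heparin-binding EGF-like growth factor, a ligand of EGFR and ERBB4 that keratinocytes release during wound closure. Its level was 4.07 and 2.91 CPM in suprabasal HB, 10.1 and 8.98 CPM in basal HB, 7.22 and 5.98 CPM in ORS, and 21.2, 21.8 and 21.8 CPM in HFSC. Ranges that stay apart were common among all genes. The share of genes with such ranges was lowest in ORS against HFSC, at 61.8%. It was highest in basal HB against HFSC, at 69.7%. Of the 10 members, 6 to 8 had such ranges in each comparison, so they alone do not set a gene apart. For Hbegf, no pair of populations overlapped, HFSC being highest and suprabasal HB lowest. In suprabasal HB it was 6.18-fold lower than in HFSC (log2 change -2.63, SE 0.19, edgeR adjusted p = 7.42e-06) and 2.72-fold lower than in basal HB (log2 change -1.44, SE 0.19, edgeR adjusted p = 0.000841). In basal HB it was 2.27-fold lower than in HFSC (log2 change -1.18, SE 0.17, edgeR adjusted p = 0.000562). In ORS it was 3.28-fold lower than in HFSC (log2 change -1.71, SE 0.18, edgeR adjusted p = 0.000158). These 4 changes passed the threshold under every alternative run. The change of suprabasal HB against ORS was -0.91 (SE 0.19, edgeR adjusted p = 0.00621) and missed the threshold when only these populations were fitted (range of adjusted p over the alternatives 4.41e-05 to 0.0726). Basal HB and ORS, neighbours in the order of levels, were not separated (log2 change 0.53, SE 0.18, edgeR adjusted p = 0.0561).

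Tgfa (ENSMUSG00000029999) encodes transforming growth factor alpha, an EGFR ligand, and lies on the plus strand of mm10 chromosome 6 from 86195223 to 86275719. Its level was 8.07 and 10.7 CPM in suprabasal HB, 14.9 and 17.3 CPM in basal HB, 7.90 and 6.03 CPM in ORS, and 9.07, 6.56 and 6.18 CPM in HFSC. Both basal HB libraries lay above the other 7, which overlapped in part. In basal HB it was 2.31-fold higher than in ORS (log2 change 1.21, SE 0.24, edgeR adjusted p = 0.0054) and 2.21-fold higher than in HFSC (log2 change 1.15, SE 0.22, edgeR adjusted p = 0.00249). Both changes passed under every alternative run. Between suprabasal HB and basal HB the log2 change was -0.78 (SE 0.24, edgeR adjusted p = 0.0413). That call was lost without basal HB replicate 1 (-0.88), basal HB replicate 2 (-0.66) or suprabasal HB replicate 1 (-0.58), and the adjusted p ran from 0.00703 to 0.196 over the alternatives. Suprabasal HB against HFSC (log2 change 0.37) and ORS against HFSC (-0.06) did not pass.

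Epgn (ENSMUSG00000035020) encodes epigen, a low-affinity EGFR ligand, at 91027464 to 91035215 on the plus strand of mm10 chromosome 5. It showed an order close to the reverse of that of Tgfa. Its level was 2.58 and 1.79 CPM in suprabasal HB, 0.698 and 1.03 CPM in basal HB, 2.54 and 2.75 CPM in ORS, and 3.08, 3.5 and 4.18 CPM in HFSC. Basal HB lay below all other libraries and suprabasal HB overlapped ORS. HFSC lay above the others in CPM, but in TPM ORS (2.67 and 3.09) and HFSC (2.8, 2.99 and 3.85) overlapped. In basal HB it was 4.15-fold lower than in HFSC (log2 change -2.05, SE 0.29, edgeR adjusted p = 0.000458) and 3.06-fold lower than in ORS (log2 change -1.61, SE 0.30, edgeR adjusted p = 0.00354). Both passed under every alternative run, although on the log2(TPM + 1) scale, which understates the change of low genes, they were -1.09 and -0.98. It was higher in suprabasal HB than in basal HB, with a log2 change of 1.34 (SE 0.30, edgeR adjusted p = 0.0106), but missed the threshold without basal HB replicate 1 (1.09) or suprabasal HB replicate 1 (1.06) and on the TPM scales (0.61 on log2(TPM + 1), range of adjusted p 0.000869 to 0.150). Over the 9 libraries the log2 CPM of Epgn and Tgfa had a Pearson correlation of -0.913, the lowest of any pair of members, given as a description of points that share libraries and depth.

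The starts of these genes differ in base composition. The sequences shown are the 250 bases before the RefSeq start site on the plus strand of GRCm38.p6, for Tgfa at chr6:86194972-86195221 and for Epgn at chr5:91027267-91027463, where bases that fall in an annotated first exon were left off. They are shown because the transcripts varied in opposite ways. RefSeq windows matched 6 of the 10 members. Capitals mark GC boxes (GGGCGG or its complement) and TATA boxes (TATAAA), searched on both strands.
Tgfa: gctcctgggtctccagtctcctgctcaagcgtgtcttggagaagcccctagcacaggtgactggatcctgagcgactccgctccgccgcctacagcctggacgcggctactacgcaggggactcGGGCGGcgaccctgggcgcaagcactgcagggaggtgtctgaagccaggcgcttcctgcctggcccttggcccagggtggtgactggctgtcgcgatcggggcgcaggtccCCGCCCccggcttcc
Epgn: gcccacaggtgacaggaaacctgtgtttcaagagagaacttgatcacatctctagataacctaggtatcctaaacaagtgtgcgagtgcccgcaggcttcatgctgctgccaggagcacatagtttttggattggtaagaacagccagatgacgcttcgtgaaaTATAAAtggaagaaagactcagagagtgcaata
The Tgfa window had 2 GC boxes, no TATA box and 69.2% G or C, and the Epgn window had 1 TATA box, no GC box and 46.8% G or C. Among 32851 promoter windows of that length, 32.7% held a GC box and 12.4% a TATA box, and the median content of G or C was 52.4%.

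Nrg1 (ENSMUSG00000062991) encodes neuregulin 1, a ligand of ERBB3 and ERBB4, and spans 31814551 to 32884029 on the minus strand of mm10 chromosome 8. Its level was 0.264 and 0.112 CPM in suprabasal HB, 0.204 and 0.372 CPM in basal HB, 0.561 and 0.615 CPM in ORS, and 3.70, 2.84 and 3.53 CPM in HFSC. HFSC lay far above the other 6 libraries, ORS lay above the hair bulb populations, and those overlapped. It was 17.3-fold lower in suprabasal HB than in HFSC (log2 change -4.12, SE 0.43, edgeR adjusted p = 7.18e-05), and 29.3-fold lower without suprabasal HB replicate 1. It was 11.6-fold lower in basal HB than in HFSC (log2 change -3.54, SE 0.40, edgeR adjusted p = 0.000155). It was 5.69-fold lower in ORS than in HFSC (log2 change -2.51, SE 0.37, edgeR adjusted p = 0.000964). In each of these 3 comparisons Nrg1 had the widest fold of the members, and all 3 changes passed under every alternative run, with log2 changes of -1.54, -1.40 and -1.13 on the log2(TPM + 1) scale. Against ORS, suprabasal HB showed a log2 change of -1.61 (SE 0.45, edgeR adjusted p = 0.0253), or -2.37 without suprabasal HB replicate 1. That call was lost without suprabasal HB replicate 2 (-1.14), without ORS replicate 2 (-1.54), on the log2(TPM + 1) scale, and when only these populations or only the 6 libraries other than HFSC were fitted (range of adjusted p 0.00927 to 0.142). Gm26578, on the opposite strand within Nrg1, reached 0.41 TPM at most and had its highest mean in HFSC too, and since the counting strand is not given, reads of the pair cannot be told apart.

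Areg, Ereg, Epgn and Btc form a cluster on mm10 chromosome 5, where they are the only 4 protein-coding genes in a span of 375.5 kb from 91027464 to 91402994. Areg (amphiregulin, an EGFR ligand and growth factor of keratinocytes, 91139599 to 91148432) stood at 1.41 and 0.560 CPM in suprabasal HB, 0.262 and 0.104 CPM in basal HB, 0.340 and 0.134 CPM in ORS, and 0.326, 0.886 and 0.509 CPM in HFSC. Suprabasal HB lay above basal HB and ORS without overlap, but overlapped HFSC, and its replicates had the largest SD of the 4 groups (0.604 CPM). In suprabasal HB it was 5.35-fold higher than in basal HB (log2 change 2.42, SE 0.71, edgeR adjusted p = 0.0345). That call was lost without suprabasal HB replicate 1 (log2 change 1.60), basal HB replicate 1 (3.22), basal HB replicate 2 (1.91) or HFSC replicate 3 (2.38), and on the TPM scales, with 0.81 on log2(TPM + 1) (range of adjusted p 0.0183 to 0.215). Suprabasal HB against ORS fell short, with a log2 change of 2.08 (SE 0.69, edgeR adjusted p = 0.0514). In CPM, 8 of the 10 members, Areg among them, were higher in suprabasal HB replicate 1 than in replicate 2. Suprabasal HB replicate 1 also held more dermal fibroblast and papilla marker RNA, with 2173 TPM for 10 markers against 1016 TPM in replicate 2. These markers summed to 1309 to 1562 TPM in basal HB, 717 to 1123 TPM in ORS and 1103 to 1741 TPM in HFSC. Their part in the Areg result was not tested.

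The Areg window before the start site lies at chr5:91139349-91139598 on the plus strand of GRCm38.p6. It is shown because it held a cyclic AMP response element and a GC box, which the Epgn window of the same cluster lacked. Both windows held a TATA box. Capitals mark a cyclic AMP response element (TGACGTCA), a GC box (GGGCGG) and a TATA box (TATAAA).
Areg: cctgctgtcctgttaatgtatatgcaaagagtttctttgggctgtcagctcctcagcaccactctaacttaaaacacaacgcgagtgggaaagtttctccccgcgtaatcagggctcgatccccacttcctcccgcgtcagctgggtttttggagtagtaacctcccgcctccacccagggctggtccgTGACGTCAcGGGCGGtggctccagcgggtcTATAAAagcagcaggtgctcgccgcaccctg
The cyclic AMP response element was found, on either strand, in 1.55% of the 32851 windows. A match describes letters and is not evidence that a factor bound there.

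Ereg (epiregulin, a ligand of EGFR and ERBB4, 91074622 to 91093646) was close to the limit of detection. It had 0.320 and 0.0895 CPM in suprabasal HB, 0.0582 and 0.119 CPM in basal HB, 0.118 and 0.0335 CPM in ORS, and 0.145, 0.0886 and 0.218 CPM in HFSC. All 4 populations overlapped, no comparison passed, and no difference was detectable at this depth. Btc (betacellulin, a ligand of EGFR and ERBB4, 91357261 to 91402994 on the minus strand) had 1.02 and 0.492 CPM in suprabasal HB, 0.466 and 0.476 CPM in basal HB, 0.590 and 0.369 CPM in ORS, and 0.580, 0.709 and 0.473 CPM in HFSC. No comparison of Btc passed either. Its widest log2 change was 0.69 (SE 0.43) in suprabasal HB against basal HB, and the level in suprabasal HB rested on replicate 1.

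**Figure D3:**
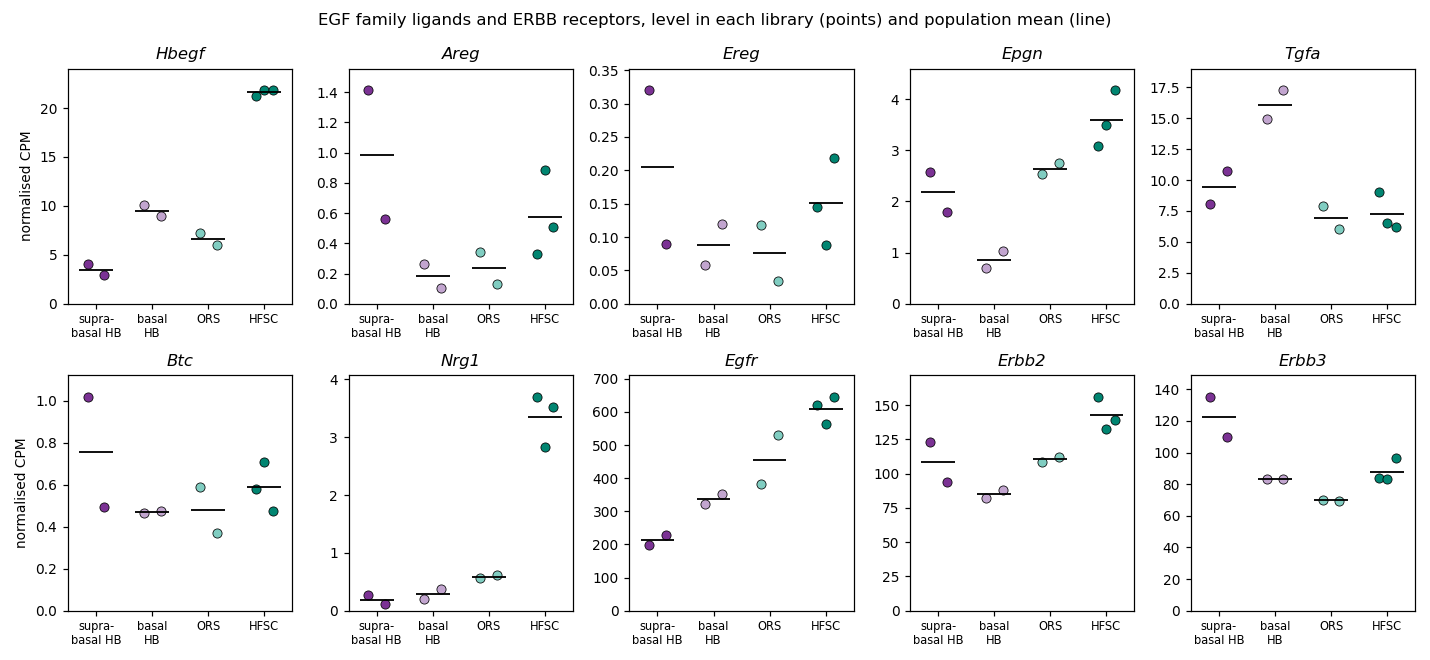
Normalised CPM of each member in every library, with 1 panel per gene, the y axis starting at 0 and lines at the population means. Hbegf and Nrg1 are highest in the 3 HFSC libraries, Tgfa in the 2 basal HB libraries, and Erbb3 in the 2 suprabasal HB libraries.

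The 3 receptors were far more abundant than the ligands per length. Their summed level was 118 and 92.1 TPM in suprabasal HB, 137 and 129 TPM in basal HB, 140 and 179 TPM in ORS, and 186, 140 and 176 TPM in HFSC. Egfr (ENSMUSG00000020122, 16752203 to 16918158 on the plus strand of mm10 chromosome 11) encodes the EGF receptor and had the highest mean TPM of the 3 in every population. Its level was 198 and 227 CPM in suprabasal HB, 322 and 353 CPM in basal HB, 381 and 530 CPM in ORS, and 620, 565 and 646 CPM in HFSC. In CPM no pair of populations overlapped, and the order ran upward from suprabasal HB through basal HB and ORS to HFSC. In TPM, ORS (78.9 and 115) and HFSC (114, 83.0 and 109) overlapped. In suprabasal HB it was 2.87-fold lower than in HFSC (log2 change -1.52, SE 0.16, edgeR adjusted p = 6.25e-05) and 2.14-fold lower than in ORS (log2 change -1.10, SE 0.16, edgeR adjusted p = 0.00121), both under every alternative run. In basal HB it was 1.81-fold lower than in HFSC (log2 change -0.85, SE 0.15, edgeR adjusted p = 0.0018). On the log2(TPM + 1) scale that change was -0.47 and did not pass, while the median of all genes shifted by 0.21, so that Egfr stood at -0.68 relative to it (range of adjusted p over the alternatives 5.70e-07 to 0.102). Between suprabasal HB and basal HB the log2 change was -0.67 (SE 0.16, edgeR adjusted p = 0.0166). That call was lost without basal HB replicate 1 (-0.73), basal HB replicate 2 (-0.60) or suprabasal HB replicate 1 (-0.57, range of adjusted p 0.000158 to 0.0966). The neighbours basal HB and ORS (log2 change -0.43, edgeR adjusted p = 0.0777) and ORS and HFSC (log2 change -0.42, edgeR adjusted p = 0.0508) were not separated. The antisense gene Egfros reached 0.29 TPM at most.

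The Egfr window, chr11:16751953-16752202 on the plus strand of GRCm38.p6, is shown as that of the most abundant member, with its GC box, on the opposite strand, in capitals.
Egfr: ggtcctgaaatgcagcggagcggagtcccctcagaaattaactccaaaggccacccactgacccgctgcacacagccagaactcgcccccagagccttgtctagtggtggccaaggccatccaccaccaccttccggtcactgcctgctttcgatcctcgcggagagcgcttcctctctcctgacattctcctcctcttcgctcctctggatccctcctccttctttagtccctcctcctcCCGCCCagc
It held no TATA box and 60.8% G or C.

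Erbb2 (ENSMUSG00000062312, 98412470 to 98437716 on the plus strand of mm10 chromosome 11), the receptor without a ligand of its own, varied least in fold among the receptors. Its level was 123 and 94.3 CPM in suprabasal HB, 82.6 and 88.2 CPM in basal HB, 109 and 112 CPM in ORS, and 156, 133 and 139 CPM in HFSC. In CPM, HFSC lay above all others, basal HB lay below them, and suprabasal HB overlapped ORS. In TPM, with 42.6 and 27.9 in suprabasal HB, 34.2 and 32.8 in basal HB, 39.8 and 42.9 in ORS, and 50.8, 38.6 and 43.8 in HFSC, HFSC overlapped ORS and the lowest library was suprabasal HB replicate 2. In basal HB it was 1.67-fold lower than in HFSC (log2 change -0.74, SE 0.13, edgeR adjusted p = 0.00139), and on the log2(TPM + 1) scale the change was -0.39, or -0.60 relative to all genes, and did not pass (range of adjusted p 2.43e-06 to 0.156). Between suprabasal HB and HFSC the log2 change was -0.39 (SE 0.12, edgeR adjusted p = 0.0275). That call was lost without HFSC replicate 1 (-0.23), HFSC replicate 2 (-0.35), HFSC replicate 3 (-0.31) or suprabasal HB replicate 2 (-0.10). It was also lost with no filter, when only these populations were fitted and on the TPM scales (-0.35 on log2(TPM + 1), limma adjusted p = 0.137). In ORS against HFSC the log2 change was -0.37 (SE 0.12, edgeR adjusted p = 0.0423). This call was lost without any 1 of the HFSC, ORS or basal HB libraries, at values between -0.39 and -0.22. It was also lost with other size factors, with no filter, when only these populations were fitted and on the TPM scales (-0.093 on log2(TPM + 1), limma adjusted p = 0.705). Mien1, a neighbour that overlaps Erbb2 on the opposite strand, averaged 68.7 TPM in suprabasal HB, 70.9 TPM in basal HB, 42.0 TPM in ORS and 67.0 TPM in HFSC, and with the counting strand not given the values of both genes are uncertain.

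Erbb3 (ENSMUSG00000018166, 128567523 to 128589652 on the minus strand of mm10 chromosome 10), the neuregulin receptor, was the member that was higher in suprabasal HB in all 3 of its comparisons. Its level was 135 and 110.1 CPM in suprabasal HB, 83.4 and 83.5 CPM in basal HB, 70.1 and 69.4 CPM in ORS, and 84.1, 83.2 and 96.5 CPM in HFSC. In CPM, suprabasal HB lay above the other 7 libraries and ORS below them, while basal HB lay within the range of HFSC. In TPM, with 38.0 and 27.1 in suprabasal HB, 27.7 and 25.1 in basal HB, 21.1 and 21.4 in ORS, and 21.2, 18.9 and 23.5 in HFSC, suprabasal HB overlapped basal HB, basal HB lay above HFSC, and ORS lay within HFSC. In suprabasal HB it was 1.40-fold higher than in HFSC (log2 change 0.48, SE 0.11, edgeR adjusted p = 0.0049), under every alternative run. It was 1.76-fold higher than in ORS (log2 change 0.82, SE 0.12, edgeR adjusted p = 0.00098), a call lost in the unfiltered log2(TPM + 1) fit alone (range of adjusted p 1.37e-08 to 0.0642). It was 1.47-fold higher than in basal HB (log2 change 0.56, SE 0.12, edgeR adjusted p = 0.00852), which missed the threshold without basal HB replicate 1 (0.55) or basal HB replicate 2 (0.56) and on the TPM scales (0.27 on log2(TPM + 1), range of adjusted p 0.000652 to 0.353). In ORS against HFSC it was lower by the CPM fit (log2 change -0.34, SE 0.11, edgeR adjusted p = 0.0344), but the sign turned on the TPM scales, where it was 0.0082 on log2(TPM + 1), with all genes shifted by 0.13. That call was also lost without any 1 of the libraries other than suprabasal HB replicate 1, at values between -0.34 and -0.18 (range of adjusted p 0.0209 to 1).

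Melanocytes and Schwann cells are cell types that use ERBB3. The 8 melanocyte markers summed to 11918 and 10778 TPM in suprabasal HB, 1244 and 759 TPM in basal HB, 256 and 52.1 TPM in ORS, and 62.8, 99.0 and 68.7 TPM in HFSC. No marker of this list was at 0 in any library. The 6 Schwann cell markers summed to 116 to 161 TPM in suprabasal HB, 170 to 204 TPM in basal HB, 7.82 to 26.2 TPM in ORS and 12.2 to 23.3 TPM in HFSC, and none of them was at 0. The melanocyte sum was thus highest where Erbb3 was highest, while the Schwann cell sum was higher in basal HB than in suprabasal HB. Their part in the Erbb3 result was not tested. Mitochondrial genes took 4.36% of the counts of each suprabasal HB library, against 2.28% to 2.89% elsewhere, and the part of this difference was not tested either.

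Per length, the balance of the receptors differed between the populations. The ratio of Egfr to Erbb3 in TPM was 0.991 and 1.37 in suprabasal HB, 2.69 and 2.83 in basal HB, 3.74 and 5.38 in ORS, and 5.38, 4.39 and 4.64 in HFSC. Suprabasal HB did not overlap the others, and ORS overlapped HFSC.

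**Figure D4:**
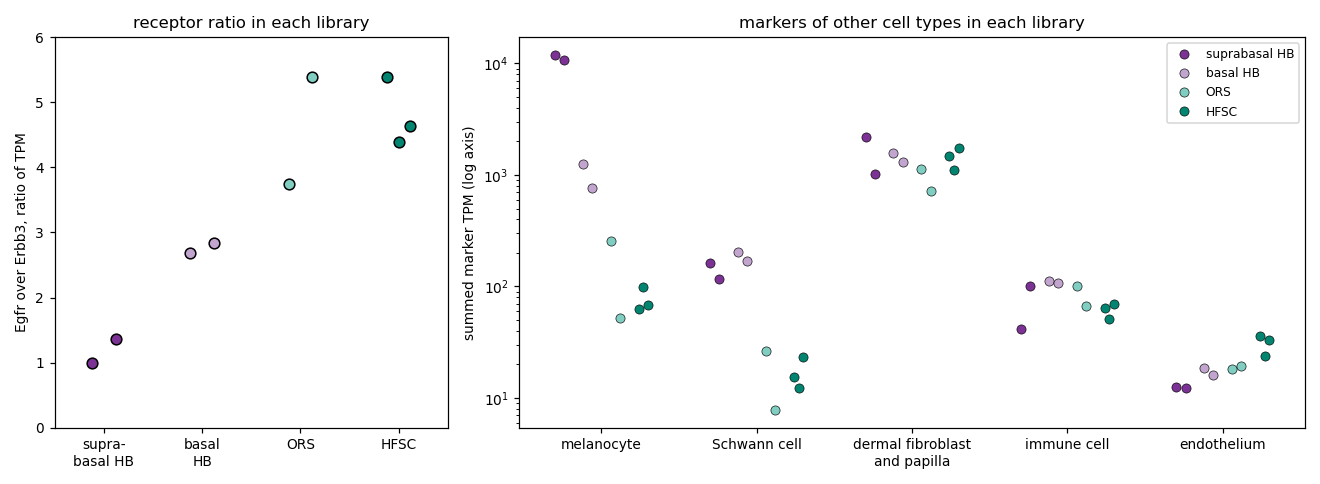
Left, the ratio of Egfr to Erbb3 in TPM in each library. Right, the summed TPM of marker lists of 5 other cell types in each library, on a log axis, coloured by population. The ratio is 0.991 and 1.37 in suprabasal HB and 2.69 or more in the other libraries, and the melanocyte sums are 10778 TPM or more in suprabasal HB and 1244 TPM or less in the others.

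Among the members, Epgn and Erbb2 had the highest correlation of log2 CPM over the 9 libraries (r = 0.894). Hbegf and Nrg1 (r = 0.890), Nrg1 and Egfr (r = 0.888), Hbegf and Egfr (r = 0.844) and Nrg1 and Erbb2 (r = 0.843) followed. Epgn and Tgfa (r = -0.913), Tgfa and Erbb2 (r = -0.736) and Egfr and Erbb3 (r = -0.626) varied most in opposite directions. Areg and Btc, neighbours on chromosome 5, had r = 0.816. These values describe 9 points from 4 populations. Outside the set, 12955 protein-coding genes with a mean of at least 1 TPM were ranked by the same measure. The closest to Hbegf were Fam160a1 (r = 0.995), Atp2b4 (0.995) and Triqk (0.992), and the closest to Nrg1 were Mamld1, Pik3ip1 and Lclat1 (0.995 each). Egfr was matched most closely by Atp12a (0.994), Bcam (0.991) and Pxn (0.990), Erbb2 by Slc12a7 (0.979), and Erbb3 by Vat1 (0.963). Tgfa was matched by Rcsd1 (0.967), Rgs12 (0.965) and Ccdc68 (0.963), and Epgn by Clcc1 (0.985), Aes (0.980) and Pter (0.976). The best values for Areg (Exoc6, 0.938), Btc (Cpz, 0.917) and Ereg (Usp22, 0.883) were lower.

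Of 5 further genes of the family, Egf, Nrg2, Nrg3, Nrg4 and Erbb4, all but Nrg3 passed the filter. Nrg2, which encodes a neuregulin like the product of Nrg1, was distributed the opposite way to Nrg1. It averaged 11.3 ± 1.0 CPM in suprabasal HB and 7.74 ± 0.640 CPM in basal HB (SD, n = 2 each), and 0.749 ± 0.443 CPM in ORS (n = 2) and 1.01 ± 0.0861 CPM in HFSC (SD, n = 3). It was 15.3-fold higher in suprabasal HB than in ORS (log2 change 3.93, SE 0.37, edgeR adjusted p = 9.49e-05; 4.69 without ORS replicate 1) and 11.2-fold higher than in HFSC (log2 change 3.49, SE 0.33, edgeR adjusted p = 3.47e-05). Schwann cell markers, at 116 to 204 TPM over the 4 hair bulb libraries and 7.82 to 26.2 TPM over the other 5, and melanocyte markers, at 759 to 11918 TPM and 52.1 to 256 TPM, showed the same split, and their part in the Nrg2 result was not tested. Erbb4, the remaining neuregulin receptor, was low, at 1.2 ± 0.144 CPM in suprabasal HB and 0.162 ± 0.0441 CPM in basal HB (SD, n = 2 each), and its log2 change between them was 2.87 (SE 0.40, edgeR adjusted p = 0.00119). Egf, which encodes the founding ligand of the family, was low, at 2.40 ± 0.172 CPM in suprabasal HB and 1.40 ± 0.341 CPM in HFSC, a log2 change of 0.78 whose call was lost without either suprabasal HB library, either basal HB library or HFSC replicate 1. Nrg4 passed in no comparison, and Nrg3 averaged 0.197 CPM or less in every population.

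Of 11 sheddases and iRhoms, the proteins that carry and regulate ADAM17, 1 was higher and 7 were lower in suprabasal HB than in HFSC, beside 25.2% and 26.3% of all genes, with a median log2 change of -0.47 against 0.02 for all genes. Fewer than 7 were lower without suprabasal HB replicate 2, where calls over all genes fell too, and 2 or 3 were lower on the TPM scales. Adam17, the main sheddase of several EGFR ligands, varied little, at 78.5 ± 6.41 CPM in suprabasal HB, 69.5 ± 2.10 CPM in basal HB, 82.0 ± 2.92 CPM in ORS and 83.7 ± 3.30 CPM in HFSC. Its 1 call, basal HB against HFSC (log2 change -0.27, edgeR adjusted p = 0.0247), turned to 0.16 on log2(TPM + 1), a scale on which all genes shifted by 0.21, and was lost without any 1 of the HFSC or basal HB libraries or suprabasal HB replicate 2. Adam10, which sheds BTC and EGF, was the 1 higher gene, at 423 ± 17.9 CPM in suprabasal HB against 149 ± 14.1 CPM in HFSC (log2 change 1.5, SE 0.10, edgeR adjusted p = 5.24e-06). Rhbdf1, which encodes iRhom1, stood at 65.8 ± 6.05 CPM in suprabasal HB against 164 ± 28.9 CPM in HFSC (log2 change -1.31, SE 0.17, edgeR adjusted p = 0.000262). In basal HB, where Tgfa was highest, Rhbdf2, which encodes iRhom2, stood at 27.4 ± 0.771 CPM against 65.8 ± 8.36 CPM in HFSC (log2 change -1.26, SE 0.16, edgeR adjusted p = 0.000237). Adam19 was highest in basal HB, at 10.7 ± 1.08 CPM against 2.40 ± 0.983 CPM in ORS (log2 change 2.16, SE 0.40, edgeR adjusted p = 0.00389). Adam12 was higher in suprabasal HB than in ORS (log2 change 2.48), but the change was 1.21 without suprabasal HB replicate 1, 3.15 without suprabasal HB replicate 2, 3.08 without ORS replicate 1 and 2.04 without ORS replicate 2. That call was lost without suprabasal HB replicate 1 or ORS replicate 2, on the TPM scales (1.1 on log2(TPM + 1)) and when only these populations were fitted.

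Of 17 negative regulators of EGFR signalling, 0 were higher and 9 lower in suprabasal HB than in basal HB, beside 13.1% and 14.8% of all genes (median log2 change -0.42 against 0.00). Against HFSC, 3 were higher and 11 lower in suprabasal HB, beside 25.2% and 26.3% of all genes (median -0.60 against 0.02). Fewer than 9 were lower than in basal HB without either basal HB library or without suprabasal HB replicate 2, fits in which calls over all genes fell too. Melanocyte markers summed to 10778 to 11918 TPM in the suprabasal HB libraries, against 759 to 1244 TPM in basal HB and 62.8 to 99.0 TPM in HFSC, and their part in these counts was not tested. Lrig1, which encodes a membrane protein that promotes loss of EGFR, averaged 9.11 ± 4.18 CPM in suprabasal HB, 61.5 ± 14.7 CPM in basal HB, 244 ± 54.2 CPM in ORS and 466 ± 28.6 CPM in HFSC (SD, n = 2, 2, 2 and 3). It was 51.0-fold lower in suprabasal HB than in HFSC (log2 change -5.67, SE 0.34, edgeR adjusted p = 3.44e-06), the same order of populations as for Egfr. The step of ORS against HFSC, -0.93, turned to 0.047 on log2(TPM + 1) and was lost without any 1 of the HFSC libraries or ORS replicate 1. Errfi1, whose product binds and inhibits the EGFR kinase, stood at 44.7 ± 11.5 CPM in suprabasal HB against 164 ± 5.31 CPM in basal HB, its highest mean (log2 change -1.87, SE 0.17, edgeR adjusted p = 0.000149). Rasa1, which encodes a GTPase-activating protein for RAS, was 4.83-fold lower in suprabasal HB than in HFSC (log2 change -2.27, SE 0.13, edgeR adjusted p = 2.61e-06).

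Of 25 signal transducers, 6 were higher and 10 lower in suprabasal HB than in HFSC, beside 25.2% and 26.3% of all genes (median log2 change -0.12 against 0.02). In ORS, 2 were higher and 9 lower than in HFSC, beside 18.1% and 23.8% of all genes (median -0.19 against -0.05), and the 9 were 3 on the TPM scales. Gab1, which encodes an adaptor downstream of EGFR, stood at 37.4 ± 4.87 CPM in suprabasal HB and 108 ± 9.19 CPM in HFSC (log2 change -1.53, SE 0.12, edgeR adjusted p = 1.13e-05). Gab2, a related adaptor, stood at 6.72 ± 0.923 CPM in suprabasal HB and 1.37 ± 0.214 CPM in ORS (log2 change 2.30, SE 0.25, edgeR adjusted p = 0.000196). Its log2 change in basal HB against ORS was 2.18. Against HFSC, Gab2 was higher in suprabasal HB (1.14) and basal HB (1.03), where Gab1 was lower (-1.53 and -1.26). In ORS against HFSC both were lower (Gab1 -0.59, Gab2 -1.15), calls lost on the TPM scales. Stat3, a transcription factor activated by these receptors, stood at 79.2 ± 5.34 CPM in suprabasal HB and 150 ± 18.7 CPM in HFSC (log2 change -0.92, SE 0.14, edgeR adjusted p = 0.000577). Of 12 genes known as outputs of ERK signalling, which lies downstream of these receptors, 0 were higher and 8 lower in ORS than in HFSC, beside the same 18.1% and 23.8% (median log2 change -0.82 against -0.05), and these 8 were 5 or 3 on the TPM scales. Spry2 and Spry4 are in both this list and that of the negative regulators, so the counts of those lists share these genes. In suprabasal HB against ORS, 6 of the ERK outputs were higher and 2 lower, beside 14.3% and 15.1% of all genes (median 0.47 against -0.01). Fewer were higher without ORS replicate 2 or suprabasal HB replicate 1, where calls over all genes fell too, and the 6 were 4 or 3 on the TPM scales. Basal HB against ORS was similar, with 5 higher and 2 lower, beside 15.8% and 14.7% of all genes (median 0.66 against -0.04). In suprabasal HB against HFSC, 3 were higher and 4 lower, beside 25.2% and 26.3% of all genes (median -0.09 against 0.02). Phlda1, an ERK output, reached 113 ± 13.4 CPM in suprabasal HB, where it was 18-fold higher than in ORS (log2 change 4.17, SE 0.20, edgeR adjusted p = 5.98e-06). Dusp4, which encodes a phosphatase of ERK, was 6.77-fold higher in suprabasal HB than in ORS (log2 change 2.76, SE 0.36, edgeR adjusted p = 0.000591), or by 3.35 on the log2 scale without ORS replicate 2. Melanocyte markers summed to 10778 to 11918 TPM in suprabasal HB, 759 to 1244 TPM in basal HB and 52.1 to 256 TPM in ORS. Gab2 was higher than in ORS by similar log2 changes in suprabasal HB (2.30) and basal HB (2.18). Phlda1 was higher in suprabasal HB than in basal HB (log2 change 2.37), and so was Dusp4. The part of melanocytes in the Gab2, Phlda1 and Dusp4 results and in the counts of ERK outputs was not tested. Epha4, a receptor of another family, was 3.15-fold lower in ORS than in HFSC (log2 change -1.65, SE 0.22, edgeR adjusted p = 0.000576).

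**Figure D5:**
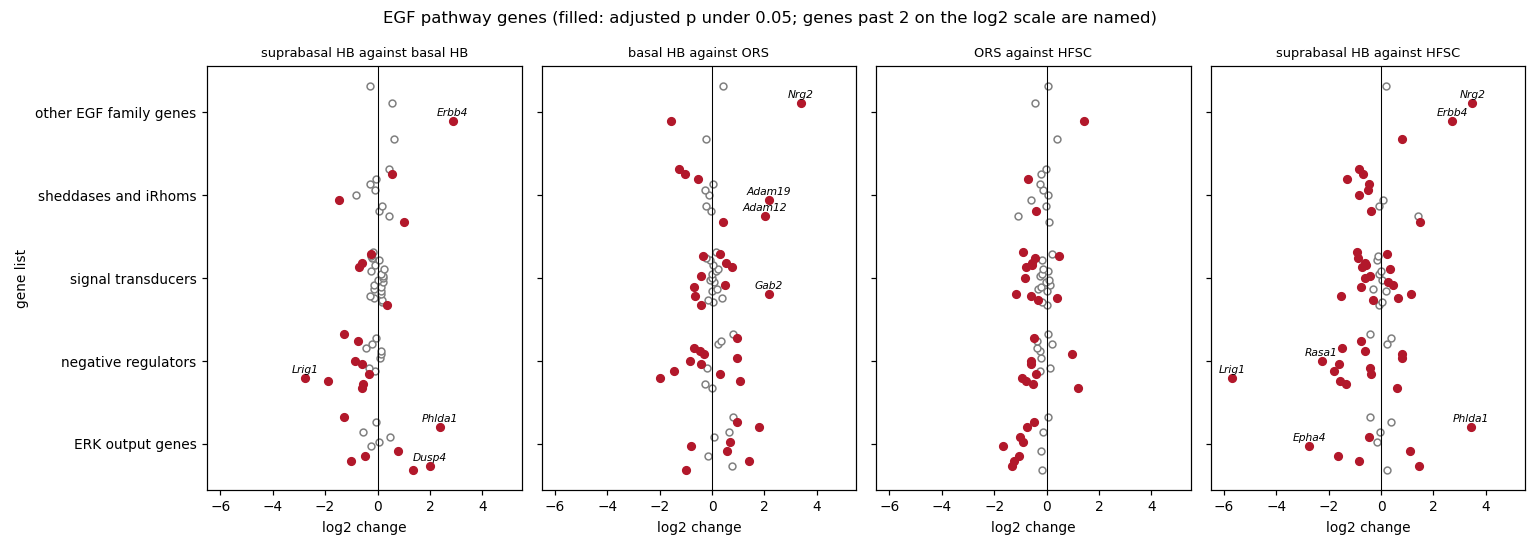
Log2 changes (x axis, first population over second) of the tested genes of 5 pathway lists (y axis) in 4 of the 6 comparisons, with filled points for an adjusted p under 0.05 and names for genes past 2 on the log2 scale. Lrig1 lies at -5.67 and Phlda1 at 3.42 in suprabasal HB against HFSC.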

How the data were processed

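Levels of 10 genes were compared in 9 bulk RNA libraries of 4 sorted populations. The authors' deposited tables give RSEM expected counts, not scaled for depth, and TPM, scaled by the authors after division by the deposited effective length in bases. Bowtie2 2.2.9, RSEM 1.2.30 and mm10 are named, per the submitters' processing notes, and the counting strand is not given in the sources used here. In all, 18 columns (9 of FPKM and 9 of a TPM table of the series) were not used. Members and gene lists were chosen with earlier results of these data known. Rounded expected counts, after filterByExpr and TMM scaling (factors 0.900 to 1.127), entered edgeR 4.0.16 (R 4.3.3) as 4 population means over all 9 libraries, which left 5 residual degrees of freedom. Comparisons used the 2-sided quasi-likelihood F-test, adjusted by Benjamini-Hochberg over 20491 genes, with a threshold of 0.05 and standard errors taken as the change over the root of F. Levels are in CPM, scaled to the TMM library size. Alternatives were other size factors, no filter, DESeq2 1.42.0, limma 3.58.1 on log2(TPM + 1) and log2(TPM + 0.1), fits of only the populations compared, a replicate block, each library left out and, chosen after seeing the data, the 6 libraries other than HFSC. Pathway genes named are 11 set by role (Erbb4, Egf, Nrg2, Nrg3, Nrg4, Adam10, Adam17, Rhbdf1, Rhbdf2, Lrig1 and Errfi1) and the 3 of each list with the widest called change, and genes most like a member are the 3 with the highest Pearson correlation of log2 CPM. Gene positions come from GENCODE M21, in which 98.9% of rows were found, and promoter windows from RefSeq. Motif matches were counted on both strands. The test was checked on simulated counts.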

Additional observations from a re-analysis of the deposited data

How the results depend on the processing

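Of the 27 called member results, 14 passed the threshold under every one of the up to 18 alternatives run for them. Of the 33 others, 9 passed under at least 1 alternative. The cause of each change below was not tested. Members called in ORS against HFSC were 2 in place of 4 with no low-count filter, on the 3 TPM scales, when only the populations compared were fitted and with the replicate block. Those in suprabasal HB against basal HB were 3 in place of 6 on the 3 TPM scales, and those in suprabasal HB against ORS were 2 in place of 4 on log2(TPM + 1) with no filter and when only these populations were fitted. Members called in basal HB against ORS were 4 in place of 2 by DESeq2's Wald test and when only these populations were fitted.

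With each library left out in turn, members called ranged from 1 to 7 in suprabasal HB against basal HB, 3 to 5 in suprabasal HB against ORS, 4 to 6 in suprabasal HB against HFSC, 2 to 4 in basal HB against ORS, 6 to 6 in basal HB against HFSC and 2 to 4 in ORS against HFSC. All genes called ranged, in the same order of comparisons, from 2729 to 5870, 3823 to 6296, 8717 to 10651, 3425 to 6252, 6422 to 10152 and 6503 to 8579, beside 5721, 6021, 10562, 6245, 10026 and 8576 with all libraries. The lone library left in a population is then assumed to vary like the others.

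Among the members, signs turned for 1 called result and 10 uncalled ones, and 2 called results of pathway genes turned too. Btc in basal HB against ORS (-0.02) became 0.014 with DESeq2 size factors, 0.012 by DESeq2's Wald test, 0.0026 on log2(TPM + 0.1), 0.010 with only these populations, 0.013 with the replicate block and 0.0099 in the 6 libraries other than HFSC, an alternative chosen after seeing the data. Btc in suprabasal HB against HFSC (0.38) became -0.0054, -0.065 and -0.0054 on log2(TPM + 1), log2(TPM + 0.1) and unfiltered log2(TPM + 1). Erbb3 in basal HB against HFSC (-0.08) became 0.027 with no filter and 0.31, 0.32 and 0.31 on these scales. Tgfa in ORS against HFSC (-0.06) became 0.027 with no filter, 0.018 with only these populations, and 0.20, 0.28 and 0.20 on these scales. Erbb3 in ORS against HFSC (-0.34) became 0.0082, 0.0088 and 0.0082, Adam17 in basal HB against HFSC 0.16, 0.17 and 0.16, and Lrig1 in ORS against HFSC 0.047, 0.048 and 0.047.

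With libraries left out, log2 changes that turned ranged from -0.33 to 0.35 (Btc), -1.14 to 0.44 (Areg) and -0.41 to 1.34 (Ereg) in basal HB against ORS, -0.074 to 0.13 (Erbb3) in basal HB against HFSC, -0.27 to 0.21 (Tgfa) and -0.66 to 0.019 (Btc) in ORS against HFSC, -0.013 to 1.42 (Areg), -0.75 to 1.16 (Ereg) and -0.24 to 0.90 (Btc) in suprabasal HB against HFSC, and -0.23 to 0.17 (Erbb2) in suprabasal HB against ORS.

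Replicate numbers share no stated animal or day, and deviations of same-numbered libraries correlated between -0.105 and 0.121, so the numbers were not taken as pairs. With the number as a replicate block, 4, 3, 4, 2, 6 and 2 members were called in the 6 comparisons, in the order given above. Of all genes, 5214, 5512, 9518, 5875, 8964 and 7386 were called in that fit. The member calls lost were Areg and Tgfa in suprabasal HB against basal HB, Nrg1 in suprabasal HB against ORS and Erbb2 in suprabasal HB against HFSC. Erbb2 and Erbb3 were lost in ORS against HFSC. Low counts limit Ereg, Areg and Nrg1 most.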
